A study of Mus musculus with 42 samples.

Results

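A group of 10 genes of Wnt signalling was followed through the differentiation of mouse embryonic stem cells towards osteoblasts, which form bone. They were 3 ligands (Wnt3, Wnt3a and Wnt5a), a transcription factor and a feedback inhibitor that are both targets of the pathway (Lef1 and Axin2), 2 antagonists that act on the co-receptor (Dkk1 and Dkk2) and 3 that bind the ligands (Sfrp1, Sfrp2 and Frzb). Every probe set of either chip that the platform annotation gives only 1 of these gene symbols was taken, which found all 10 genes among 18193 genes with a single symbol. They had 21 of 45137 probe sets, 16 on the MOE430A chip (430A) and 5 on the MOE430B chip (430B). A probe set is a group of short probes that together give 1 value, for 1 transcript or for several.

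All cultures came from the D3 mouse embryonic stem cell line, and total RNA was taken on day 4, 5, 6, 8, 16, 25 or 30, with 3 RNA samples a day and each RNA on both chips, so 42 arrays. Ascorbic acid, vitamin D3 and beta-glycerophosphate stand in the growth protocol of every sample, while the titles write VD3 from day 6 on and not on days 4 and 5, so that day and this label change together. Undirected cultures were not analysed here. The labels call the cells a pure clone with contaminating cells undetermined, and they do not say whether replicates are separate cultures, so the p-values here rest on variation among these RNA samples, which may be technical.

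Wnt proteins are secreted signals. In the canonical pathway they bind a Frizzled receptor with the co-receptors Lrp5 or Lrp6, which stabilises beta-catenin, and beta-catenin then activates target genes together with Lef1 and the related Tcf factors. Dickkopf proteins (Dkk) bind the co-receptors, and secreted Frizzled-related proteins (Sfrp1, Sfrp2 and Frzb) bind the ligands themselves. In the embryo Wnt3 acts in the formation of the primitive streak, and in bone canonical Wnt signalling favours the osteoblast over the cartilage cell.

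Upstream sequence was available for 8 of the 10 genes (RefSeq, GRCm38.p6), not for Wnt5a and Sfrp1. The 250 bases before each annotated start were searched on both strands for the 4 forms of the Lef1/Tcf core motif CTTTGAA or CTTTGAT or CTTTGTA or CTTTGTT, which do not overlap one another in these windows. A match stood in 2 of the 11 windows of these genes, while 14.8% of the 32851 windows of all genes held one. The windows of the genes past the F test below that have a single annotated start in the table are shown 5′ to 3′ in lower case with matches in capitals. They are those of Axin2 (chr11:108920099-108920348, plus strand), Dkk1 (chr19:30549497-30549746, minus strand), Dkk2 (chr3:132085042-132085291, plus strand) and Sfrp2 (chr3:83766071-83766320, plus strand).
Axin2: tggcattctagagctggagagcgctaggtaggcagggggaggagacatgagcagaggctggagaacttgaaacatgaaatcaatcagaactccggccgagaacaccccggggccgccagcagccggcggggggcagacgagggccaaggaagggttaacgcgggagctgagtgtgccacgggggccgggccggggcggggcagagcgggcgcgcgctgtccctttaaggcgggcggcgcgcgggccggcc
Dkk1: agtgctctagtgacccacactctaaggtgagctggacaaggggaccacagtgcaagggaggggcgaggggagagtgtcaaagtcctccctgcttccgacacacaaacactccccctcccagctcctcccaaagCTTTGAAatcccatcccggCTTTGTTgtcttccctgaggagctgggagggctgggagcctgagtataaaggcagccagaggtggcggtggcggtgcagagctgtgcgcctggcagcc
Dkk2: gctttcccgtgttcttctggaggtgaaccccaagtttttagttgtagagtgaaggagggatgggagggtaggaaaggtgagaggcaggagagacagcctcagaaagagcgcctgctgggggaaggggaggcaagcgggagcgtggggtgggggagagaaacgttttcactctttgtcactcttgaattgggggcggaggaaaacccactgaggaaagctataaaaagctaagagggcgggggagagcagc
Sfrp2: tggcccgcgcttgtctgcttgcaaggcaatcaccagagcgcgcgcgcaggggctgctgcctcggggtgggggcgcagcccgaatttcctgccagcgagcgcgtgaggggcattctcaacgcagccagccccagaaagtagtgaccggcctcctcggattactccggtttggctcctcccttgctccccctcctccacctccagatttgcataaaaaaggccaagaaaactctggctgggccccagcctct
Dkk1 had 2 matches on the strand of the gene, CTTTGAA from 117 bases and CTTTGTT from 98 bases before the start. The Axin2, Dkk2 and Sfrp2 windows held none of these letters, nor did those of Wnt3, Wnt3a and Frzb. Lef1 had 4 annotated starts, and 1 window, the most downstream, held CTTTGTA on the opposite strand.

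The deposited values were MAS5 signal, a brightness summarised over the probes of a set, scaled to a common trimmed mean of 1501 on 430A and 1500 on 430B. Levels below are log2 of this signal, and changes are the later day minus the earlier day on the same scale. The number of arrays limits the precision. The 7 days lay in 4 scan batches on 430A and 5 on 430B, and on both chips every array of day 6 and of day 16 shared a batch, while no array of day 4 shared one with day 8 or day 30. For day 8 and day 30 against day 4 the scan batch and the day therefore cannot be told apart. Array headers number replicate 3 of days 8 and 16 as 4, and its Sfrp1 values stood apart (below). All 8 pluripotency markers passed the filter on low signal, and their summed signal had a median of 3877 on day 30, against 85251 on day 4. Of 9 osteoblast markers 6 had a probe set here and 3 passed the filter, while Ibsp, Dmp1 and Phex did not. The summed signal of the 3 that passed had a median of 22467 on day 30, against 3554 on day 4. The sum is of linear signal, and on day 30 most of it came from Col1a1. Col1a1, a collagen that other connective tissue cells also make, averaged 14.37 on day 30, against 10.31 on day 4 on the log2 scale. Alpl, the alkaline phosphatase of bone, averaged 8.78 on day 30, against 10.01 on day 4.

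Of the 21 probe sets 18 passed the filter, which covers 9 of the 10 genes, and 8 of these differed between days in limma's F test over the 7 days at an adjusted p under 0.05. Across both chips 22.4% of the 34965 probe sets tested did so. The 8 belonged to 7 genes, Wnt5a, Lef1, Axin2, Dkk1, Dkk2, Sfrp1 (2 probe sets) and Sfrp2. On 430A 7 of 13 passed (36.2% of all probe sets there), and on 430B 1 of 5 passed (9.72%). Between neighbouring days 0 of the 18 passed in limma at any of the 6 steps, where 0.00572%, 0.0543%, 0.0629%, 1.68%, 0.346% and 0% of all probe sets did, in order of time. At an unadjusted limma p under 0.05 these steps held 2, 0, 6, 0, 5 and 1 of the 18. The share of all probe sets at that threshold was not taken, so these counts cannot be weighed against it. Over longer spans, 4 passed for day 8 against day 4 (9.46% of all), of which 3 rose (5.75%) and 1 fell (3.7%). For day 16 against day 6, 3 passed (6.29%), of which 2 rose (3.85%) and 1 fell (2.45%). For day 30 against day 4, 5 passed (17.4%), of which 1 rose (8.98%) and 4 fell (8.41%). Without day 4 replicate 2, day 8 replicate 1 or day 8 replicate 2, the first of these counts was 2. For day 16 against day 6 it was 0 without day 6 replicate 3 and 1 without day 16 replicate 1. The median change of the 18 was 0.09, -0.24 and -0.34 in these 3 comparisons, against -0.01, -0.05 and -0.06 over all probe sets. Day 4 is shared by 2 of the 3. In bulk RNA fewer cells of a type and less RNA per cell cannot be told apart.

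**Figure D1:**
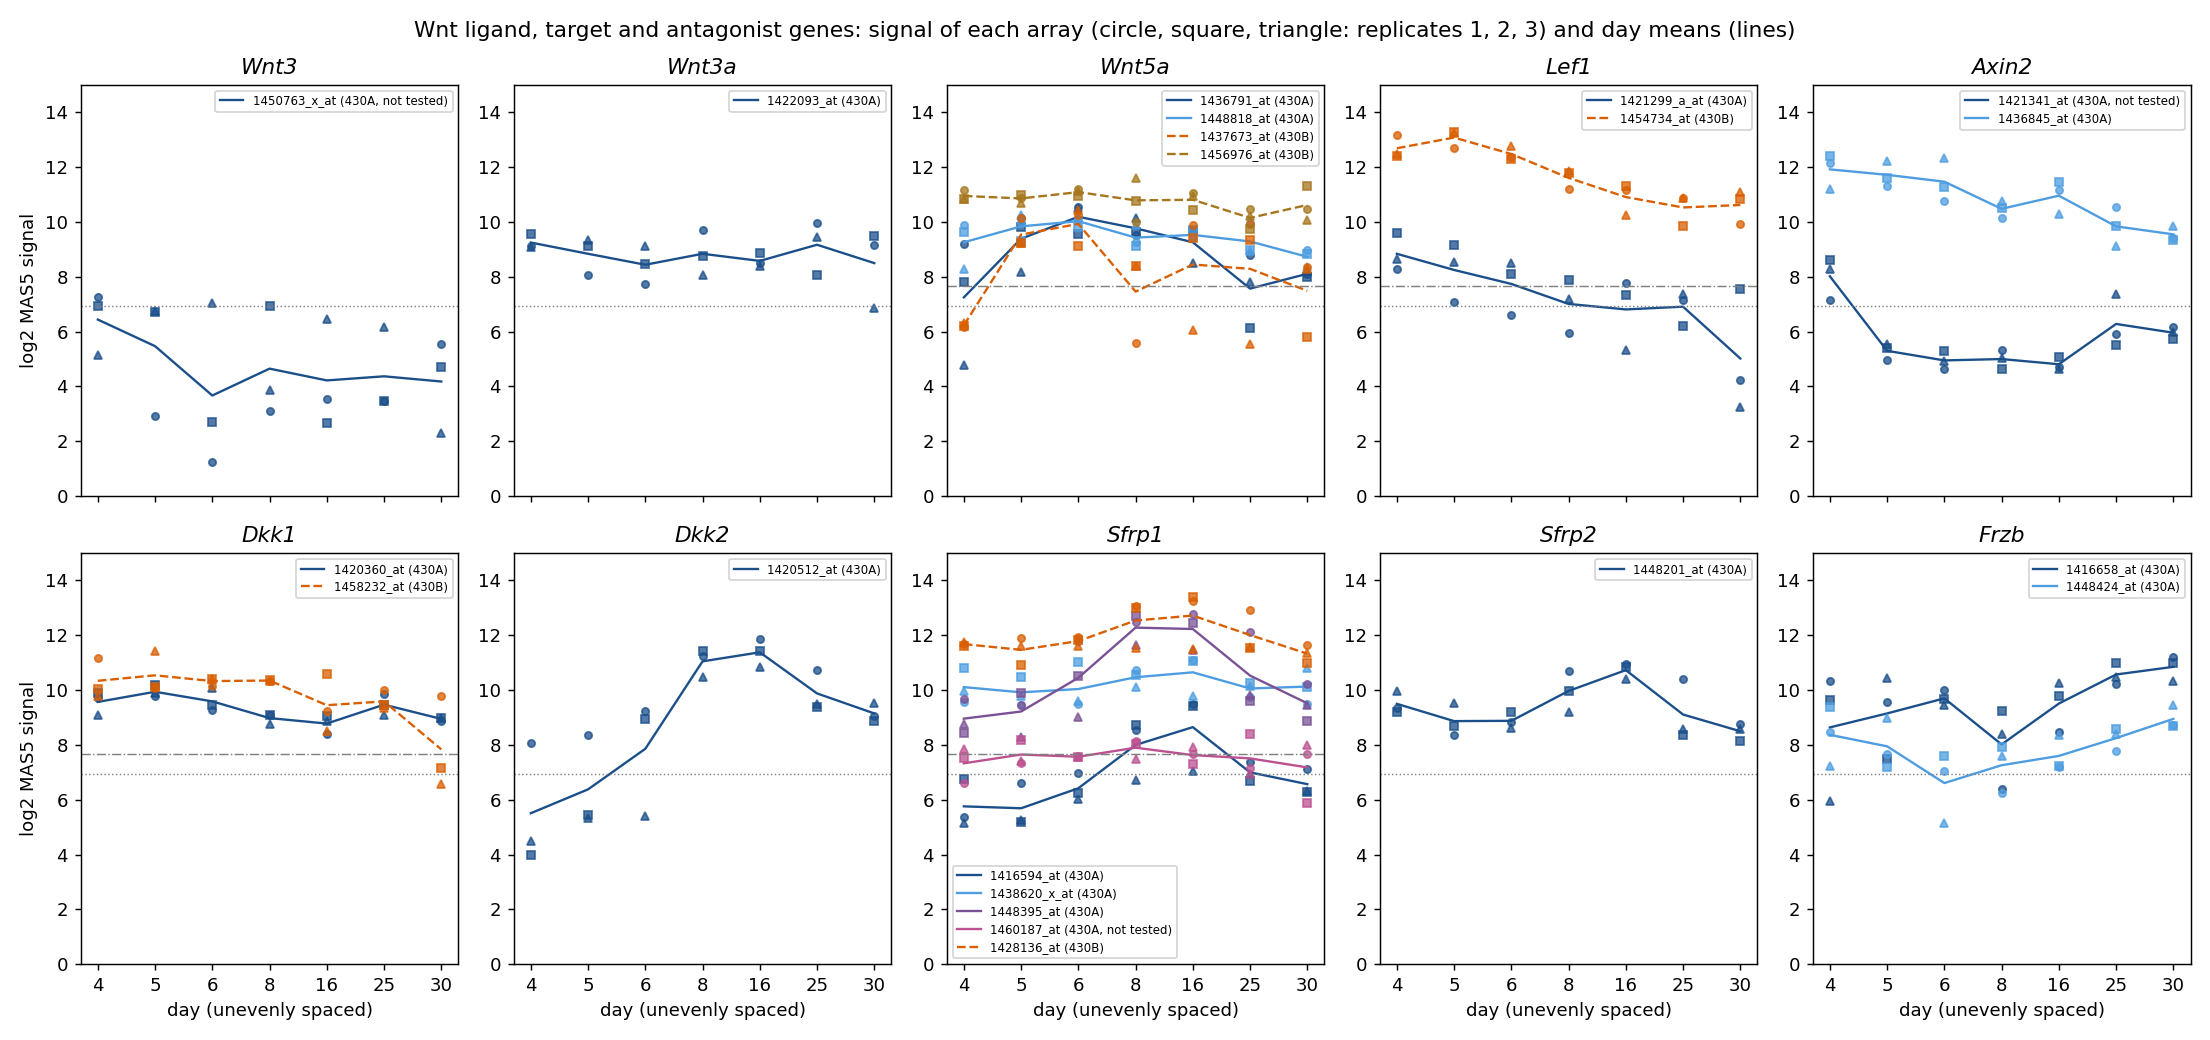
Log2 MAS5 signal (vertical axes) of every probe set of the 10 genes on each array over the 7 days (horizontal axes), with symbols for replicates and lines for day means; grey lines mark the 20th percentile of each chip (6.95 dotted, 7.67 dash-dotted). Axin2 and the 430B probe set of Lef1 end lower than they began, while Dkk2 and the Sfrp1 probe set 1448395_at peak on days 8 and 16.

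Of the ligands, Wnt5a rose early on 1 of its 4 tested probe sets, Wnt3a did not pass in any comparison, and Wnt3 could not be tested. Wnt5a encodes a ligand that acts largely outside the beta-catenin branch. Its probe set 1436791_at had 9.53, 9.65 and 10.13 on day 8, against 9.18, 7.80 and 4.77 on day 4. The change was 2.52 (SE 0.80, limma adjusted p = 0.0365). The 3 values of day 8 all lay above those of day 4, which spread widely. With the lowest value raised to the chip's 20th percentile (6.95), as for every fold written "at least" here, the rise was at least 3.46-fold. This call was lost in 5 of the 6 fits that leave out 1 array of those days, and the adjusted p was 0.22 without day 4 replicate 3, 0.104 without day 8 replicate 3, 0.0827 and 0.0732 without day 8 replicates 1 and 2, and 0.0524 without day 4 replicate 2. Without day 4 replicate 1 the rise was at least 5.25-fold. It was also lost with eBayes without a trend (0.0542) and, in an alternative added after seeing the data, with the RNA number in the array headers as a block (0.0661).

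The day means of this Wnt5a probe set were 7.25, 9.39, 10.19, 9.77, 9.26, 7.57 and 8.11 from day 4 to day 30, highest on day 6. Its F test (adjusted p = 0.026) was lost without day 6 replicate 1 (0.0556) or 3 (0.0522). The other 3 tested Wnt5a probe sets were also highest on day 6, and none of them passed the F test (adjusted p = 0.138 for 1448818_at, 0.21 for 1437673_at and 0.599 for 1456976_at). For 1437673_at on 430B all 3 values of day 4 (6.18, 6.19 and 6.31) lay under the chip's 20th percentile, while those of day 5 were 10.13, 9.23 and 9.25. These groups did not overlap, but the step did not pass (adjusted p = 0.574). On 1456976_at the day means stayed within 0.94 of each other.

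Wnt3a, a canonical ligand of the streak and tail bud, had day means between 8.44 and 9.25 (F test adjusted p = 0.826). Its change for day 30 against day 4 was -0.75 (SE 0.61, adjusted p = 0.399), with 9.15, 9.49 and 6.85 on day 30, against 9.11, 9.55 and 9.09 on day 4. On day 30, 2 values lay within the range of day 4 and 1 lay below it. The Wnt3 probe set 1450763_x_at, a type in which some probes may read other transcripts, lay under the 20th percentile on all 3 arrays of days 5, 8, 16, 25 and 30 and on 2 of 3 on days 4 and 6. Its highest values were 7.25 on day 4 and 7.04 on day 6, so no level can be given for Wnt3.

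Lef1 and Axin2 fell. Axin2 encodes a scaffold of the complex that degrades beta-catenin and is a widely used readout of the canonical pathway. Its probe set 1436845_at had 9.41, 9.36 and 9.87 on day 30, against 12.15, 12.39 and 11.22 on day 4. The groups did not overlap, and the change was -2.37 (SE 0.42, adjusted p = 2.59e-04), 5.17-fold lower. Without any 1 array the change lay between -2.72 and -2.14 and stayed past the threshold. The day means were 11.92, 11.72, 11.47, 10.48, 10.96, 9.84 and 9.55. Between neighbouring days the values were free of overlap for day 8 against day 6 alone, a change of -0.99 that did not pass (adjusted p = 0.599).

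By day 8 Axin2 was already lower, with 10.16, 10.52 and 10.77, against the day 4 values above. The change was -1.44 (SE 0.42, 2.71-fold lower, adjusted p = 0.0228). It did not hold when day 4 replicate 1 (adjusted p = 0.0592) or 2 (0.0979) was left out, nor without day 8 replicate 1 (0.102) or 2 (0.0525). With the header number as a block the adjusted p was 0.0777. For day 16 against day 6 the change was -0.51 (SE 0.42, adjusted p = 0.516). A second Axin2 probe set, 1421341_at, did not pass the filter. It had 7.14, 8.62 and 8.30 on day 4, and its means lay between 4.81 and 6.28 on all later days.

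Lef1 encodes the DNA-binding partner of beta-catenin, and its expression is itself raised by the pathway. On 430B the probe set 1454734_at had 9.94, 10.84 and 11.08 on day 30, against 13.18, 12.41 and 12.47 on day 4. These groups did not overlap either, and the change was -2.07 (SE 0.35, adjusted p = 4.65e-04), 4.19-fold lower. The fall kept its call without any 1 array, with changes between -2.30 and -1.73. Among the members this probe set had the lowest F test p (adjusted p = 2.16e-05). Its day means were 12.69, 13.08, 12.48, 11.61, 10.91, 10.53 and 10.62, and in the order of days the only neighbours without overlap were days 6 and 8. For day 8 the values were 11.21, 11.77 and 11.86, against 12.38, 12.29 and 12.77 on day 6.

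Within a single scan batch, Lef1 on 430B was also lower on day 16, with 11.16, 11.32 and 10.24, against those day 6 values. The change was -1.58 (SE 0.35, 2.98-fold lower, adjusted p = 0.019). Leaving out day 6 replicate 3 (adjusted p = 0.102) or day 16 replicate 3 (0.116) ended this call, as did eBayes without a trend (0.0806) and a block for the header number (0.0751). On 430A the Lef1 probe set 1421299_a_at, which reads several of the gene's transcripts, had 4.23, 7.57 and 3.25 on day 30, against 8.27, 9.60 and 8.64 on day 4. The change was -3.82 (SE 0.98, adjusted p = 0.00603), or at least 3.20-fold lower since 2 of the 3 day 30 values lay under the 20th percentile. Its highest values on days 4, 5 and 6 were 9.60, 9.15 and 8.51, and no later array exceeded 7.89. The filter may thus have kept it through the early days, so this fall may not be independent of the filter. Over the 7 days this probe set did not pass (adjusted p = 0.0633), although it did without day 30 replicate 2 (0.00674), with the replicate number as a block (0.0417), with scan batch as a random block (0.0383), under quantile normalization (0.0437) and under median centring (0.049). The 2 Lef1 probe sets had a Pearson r of 0.69 over the 21 RNA samples, and Lef1 on 430B with Axin2 had 0.82.

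Primitive streak and pluripotency markers were also lower on day 30 than on day 4. The summed signal of the 6 primitive streak markers tested, out of 7 listed, ranged from 1464 to 1758 on day 30, against 7136 to 25799 on day 4, and Evx1 and Lhx1 lay under the 20th percentile on all 3 arrays of day 30. The sum of the 8 pluripotency markers ranged from 3116 to 4153 on day 30, against 22548 to 134317 on day 4, and Nanog and Tdgf1 were under the percentile on day 30. On days 4, 5 and 6 its median was 85251, 17026 and 10383, and that of the streak sum 19590, 7314 and 3448. The ranges of these days overlapped in both lists. Over the same days Lef1 on 430B averaged 12.69, 13.08 and 12.48, and Axin2 11.92, 11.72 and 11.47. The Lef1 probe set on 430A averaged 8.84, 8.25 and 7.74. The Axin2 probe set that did not pass the filter averaged 8.02, 5.30 and 4.95. These means are on the log2 scale, while the marker sums are of linear signal, and the courses were not compared in a test. A measure of RNA quality, the log2 ratio between the Gapdh control probe sets at the 3′ and the 5′ end, was 3.27 ± 0.19 on day 30, against 2.63 ± 0.37 on day 4 on 430A (SD, n = 3 each). On 430B it was 3.28 ± 0.21 on day 30, against 2.70 ± 0.21 on day 4. The part of these in the falls was not tested.

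The 2 Dickkopf genes differed in course. Dkk2 was higher on day 8 and on day 30 than on day 4, whereas Dkk1 was lower on day 30 on 1 of its 2 probe sets. Dkk2 encodes an antagonist of Lrp6 that can also activate it in some settings. It had 11.23, 11.44 and 10.47 on day 8, against 8.08, 3.97 and 4.48 on day 4. All day 8 values lay far above all day 4 values. The change was 5.54 (SE 0.98, adjusted p = 8.82e-04), a rise of at least 13.2-fold, and the call held without any 1 array, with changes between 4.77 and 6.82.

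Dkk2 peaked on day 16, and its day means were 5.51, 6.38, 7.86, 11.05, 11.38, 9.88 and 9.15. Within a single scan batch it had 11.86, 11.42 and 10.86 on day 16, against 9.23, 8.95 and 5.39 on day 6. The change was 3.52 (SE 0.98, adjusted p = 0.0238), at least 8.00-fold. Day 6 replicate 3 was far below the other arrays of its day, and without it the change was 2.29, or 4.88-fold, and did not pass (adjusted p = 0.162). The call was also lost without day 16 replicate 1 (0.0989) or 2 (0.0659). On day 30 the values were 9.05, 8.89 and 9.52, all above the 3 values of day 4. The change was 3.65 (SE 0.98, adjusted p = 0.0081), at least 3.55-fold, and it did not pass without day 4 replicate 2 (0.0519).

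Dkk1, itself a target of the pathway that inhibits Lrp5 and Lrp6, gave different results on its 2 probe sets, which had a Pearson r of 0.45 over the 21 RNA samples. On 430B the probe set 1458232_at had 9.79, 7.16 and 6.57 on day 30, against 11.19, 10.03 and 9.80 on day 4. The change was -2.50 (SE 0.67, adjusted p = 0.0218), or at least 3.90-fold lower. Replicate 1 of day 30 nearly reached the lowest day 4 value, and without it the fall was at least 6.37-fold. Leaving out day 4 replicate 1 (adjusted p = 0.107), day 30 replicate 2 (0.0894) or day 30 replicate 3 (0.122) ended the call. Its day means were 10.34, 10.54, 10.33, 10.35, 9.45, 9.59 and 7.84, and the F test did not pass (0.0629), except without day 30 replicate 1 (0.00311) or day 16 replicate 2 (0.0413).

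On 430A the Dkk1 probe set 1420360_at passed the F test (adjusted p = 0.0258) with a narrow range of day means, 9.57, 9.94, 9.59, 8.98, 8.78, 9.47 and 8.95. It was lost without day 5 replicate 2 (0.0676) or day 16 replicate 1 (0.0588), and with the header number as a block (0.0758). For day 16 against day 6 its values were 8.41, 9.07 and 8.87, against 9.26, 9.44 and 10.06. These did not overlap, but the change of -0.80 (SE 0.30) missed the threshold (adjusted p = 0.09), and for day 30 against day 4 it was -0.62 (SE 0.30, adjusted p = 0.131).

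Of the 3 ligand-binding antagonists, Sfrp1 and Sfrp2 were highest on days 8 and 16 and lower afterwards, and Frzb had its highest mean on day 30 on both of its probe sets. Sfrp1 encodes an antagonist that restrains bone formation in mice. Its probe set 1448395_at had 12.49, 12.70 and 11.65 on day 8, against 9.66, 8.45 and 8.77 on day 4. The groups lay well apart, and the change was 3.32 (SE 0.66, adjusted p = 0.00198), 10.0-fold higher, with a call kept without any 1 array. The day means were 8.96, 9.22, 10.45, 12.28, 12.23, 10.53 and 9.52. For day 30 against day 4 the change was 0.56 (SE 0.66, adjusted p = 0.576), and for day 16 against day 6 it was 1.78 (SE 0.66, adjusted p = 0.088), which passed without day 6 replicate 1 (5.46-fold, 0.0262), with the replicate number as a block (0.0136) and with the header number as a block (0.027).

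The 5 Sfrp1 probe sets did not all follow this course. Besides 1448395_at, only 1416594_at passed the F test (adjusted p = 0.0484). It did so in 4 of the 18 fits without 1 array in which it was tested. Under quantile normalization (0.0656) or median centring (0.0621) it did not pass. The filter kept it through 3 arrays only, day 8 replicate 2 (8.72) and day 16 replicates 1 and 2 (9.48 and 9.42). Without any 1 of these it was not tested. Days 8 and 16 thus let it in, so its F test and its results for these days are not independent of the filter. The day means of 1416594_at were 5.76, 5.69, 6.42, 8.00, 8.65, 7.00 and 6.57. On 430B, 1428136_at had 13.06, 13.01 and 11.55 on day 8, against 11.70, 11.60 and 11.76 on day 4. On day 16 it had 13.24, 13.40 and 11.51, against 11.94, 11.83 and 11.60 on day 6. Replicates 1 and 2 of days 8 and 16 lay above every earlier array and replicate 3 among them, and this probe set did not pass the F test (0.192). The low replicate 3 of these 2 days, numbered 4 in the array headers, was seen on both chips. In an alternative added after seeing the data that leaves both out, 1416594_at passed for day 8 against day 4 (change 2.87, adjusted p = 0.0384) and for day 16 against day 6 (3.03, 0.0345). Each also passed with only the array of its later day left out (0.0492 and 0.0366). With all arrays neither passed in limma (adjusted p = 0.0777 and 0.0998), and the rises were at least 2.07-fold and at least 3.24-fold. With both RNA samples left out, the calls above for Wnt5a on day 8 against day 4 (0.11), Lef1 on 430B for day 16 against day 6 (0.128) and the F test of Dkk1 on 430A (0.0707) were lost. The probe set 1438620_x_at, of the type that may read other transcripts, had day means within 0.73 of each other (F test adjusted p = 0.73), and 1460187_at did not pass the filter. Correlations of 1448395_at with the other tested Sfrp1 probe sets were 0.82, 0.77 and, for 1438620_x_at, 0.31.

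Sfrp2, an antagonist found in limb and mesenchymal cells, had 10.94, 10.84 and 10.41 on day 16, against 8.82, 9.20 and 8.62 on day 6. The groups did not overlap and both lay in a single scan batch. The change was 1.85 (SE 0.46, adjusted p = 0.0124), 3.61-fold higher, and it was lost without day 6 replicate 3 (0.0554) or day 16 replicate 1 (0.0608). The day means were 9.50, 8.87, 8.88, 9.97, 10.73, 9.11 and 8.50. On day 25 the values were 10.40, 8.35 and 8.57, against those of day 16. Replicate 1 of day 25 was high, as it was for Sfrp1, and the change was -1.62 (adjusted p = 0.11) with it and -2.27 (4.82-fold lower, 0.0111) without it. The Gapdh ratio of 3′ to 5′ signal on 430A was 3.84 ± 0.38 on day 25, against 2.55 ± 0.15 on day 16 (log2, SD, n = 3 each), and its part in this was not tested.

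Frzb encodes a secreted Frizzled-related protein first known from cartilage. Its probe set 1416658_at had 11.2, 11.0 and 10.35 on day 30, against 10.33, 9.64 and 5.96 on day 4. All day 30 values lay above those of day 4, by little for 1 pair of arrays. The change of 2.21 (SE 0.88) missed the threshold (adjusted p = 0.0676), and it was at least 5.86-fold without day 4 replicate 1 (0.0177) but 1.82-fold without day 4 replicate 3 (0.441). The second probe set 1448424_at also had its highest mean on day 30, 8.95, against 8.37 on day 4 (change 0.58, SE 0.69, adjusted p = 0.585). The 2 had a Pearson r of 0.57, and neither passed the F test (0.111 and 0.121), although 1416658_at did without day 4 replicate 1 (0.042) or 3 (0.029).

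**Figure D2:**
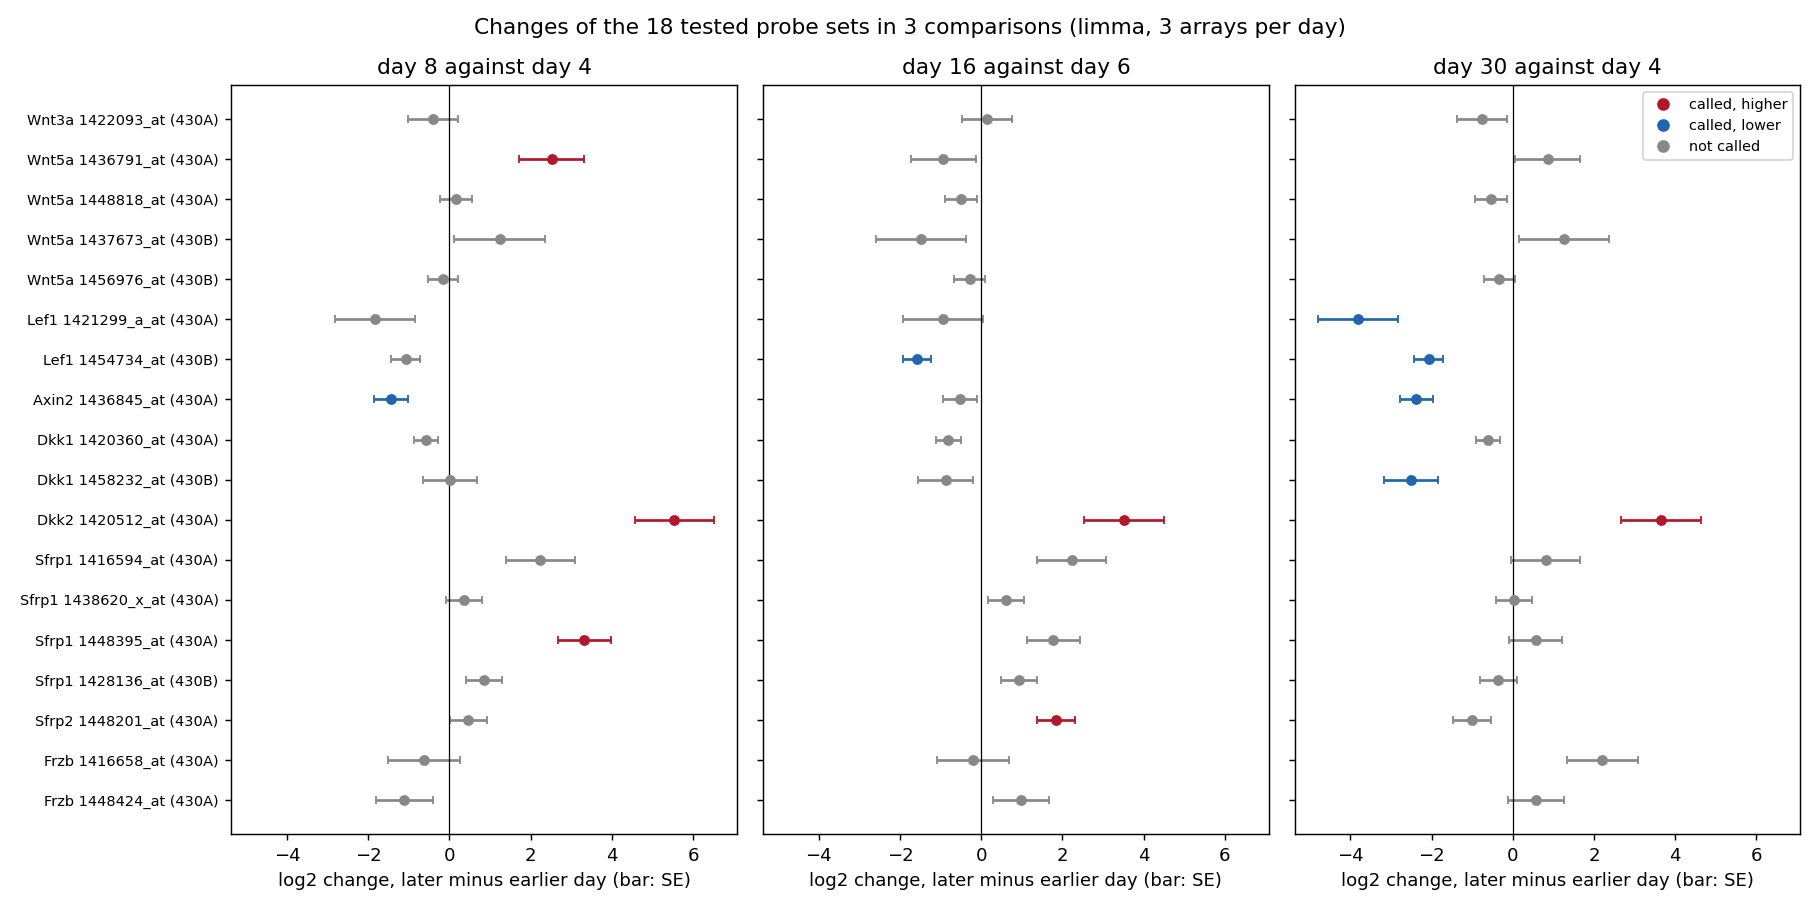
Log2 change of the 18 tested probe sets (points, with bars for the SE) for day 8 against day 4, day 16 against day 6 and day 30 against day 4, in red where higher and past the threshold, in blue where lower and past it. Dkk2 is the only member that was higher and past the threshold in all 3 comparisons. Axin2, Lef1 (both probe sets) and Dkk1 on 430B were lower and past it on day 30.

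For the 5 members whose brightest tested probe set on 430A passed the F test, the genes with the most similar pattern were found by Pearson correlation over the 21 arrays of 430A, among 4182 genes that also passed. These are descriptions over arrays that share the order of days. Dkk2 was most like the collagen genes Col3a1 (r = 0.988) and Col1a2 (0.964) and the actin-binding gene Pfn2 (0.949). Sfrp1 was most like the matrix gene Tgfbi (0.963), Lsp1 (0.949) and Itm2a (0.939). Axin2 was most like Ifitm1 (0.913), Pdlim4 (0.913) and the acetyltransferase gene Kat2a (0.898). Sfrp2 had Adcy7 (0.86), Col11a1 (0.849) and Hmgn3 (0.833), and Dkk1 had the kinase gene Tlk2 (0.822), Cbx1 (0.82) and Crabp1 (0.818). Among the members, Sfrp1 1448395_at had an r of 0.83 with Dkk2 and 0.67 with Sfrp2, and Dkk2 and Sfrp2 had 0.42. For the Sfrp1 probe sets 1416594_at, 1428136_at and 1438620_x_at, r was 0.76, 0.59 and 0.25 with Dkk2. With Sfrp2 it was 0.61, 0.80 and 0.37.

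**Figure D3:**
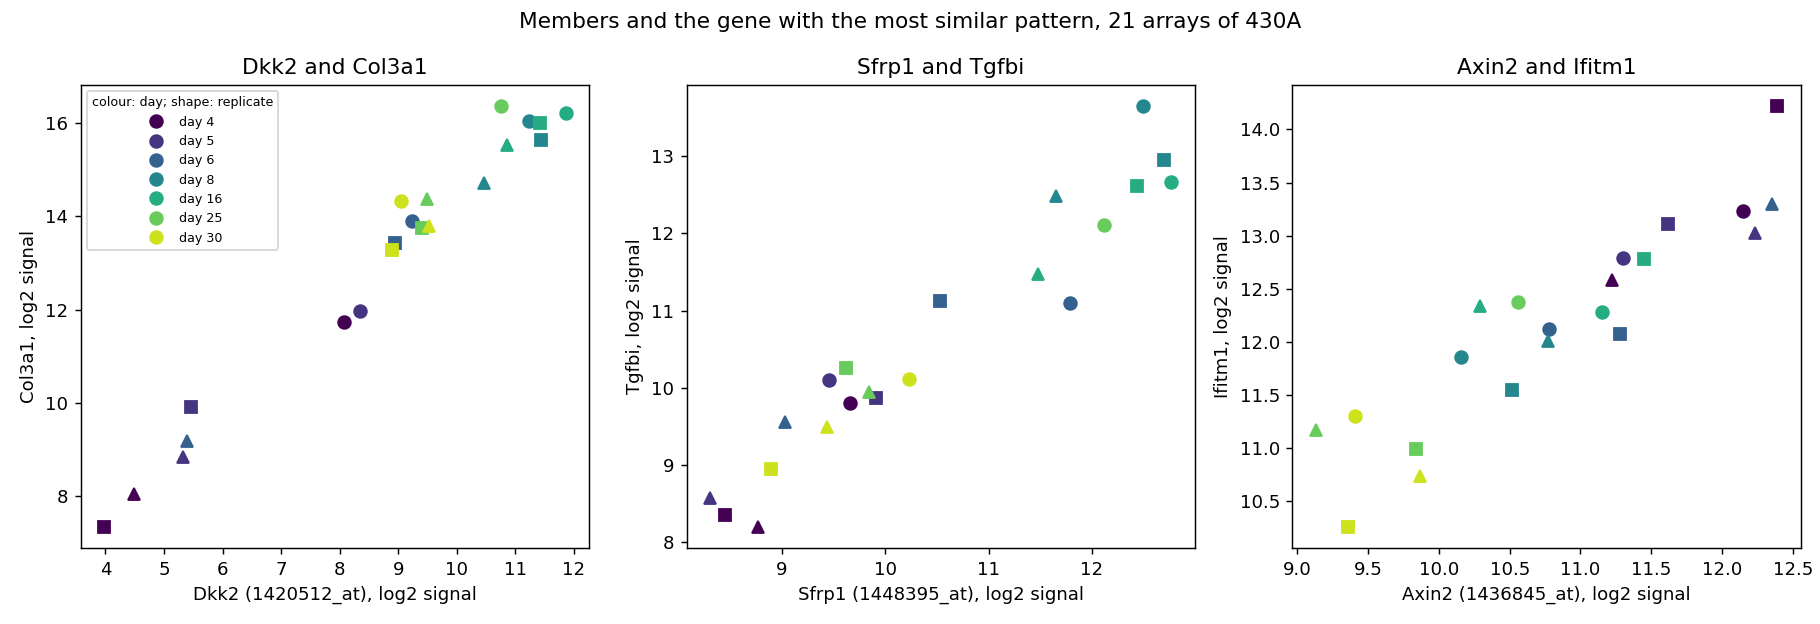
Log2 signal of Dkk2, Sfrp1 (1448395_at) and Axin2 (horizontal axes) against that of Col3a1, Tgfbi and Ifitm1 (vertical axes) on the 21 arrays of 430A, with colour for day and shape for replicate. The points follow a line in each panel (r = 0.988, 0.963 and 0.913), and single arrays within a day, such as day 6 replicate 3 for Dkk2, keep to it. The genes on the vertical axes were chosen for their correlation over these same arrays.

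Col3a1, a collagen of connective tissue, had 14.72 on day 8 replicate 3, against 16.05 and 15.64 in the other two, and 9.18 on day 6 replicate 3, against 13.90 and 13.44. On both of these arrays Dkk2 was the lowest of its day as well. Col3a1 was chosen for its correlation with Dkk2 over these same arrays, so this is not separate evidence of a shared pattern. All 8 mesenchyme markers listed were tested and none lay under the 20th percentile on all 3 arrays of any day. Their summed signal ranged from 92365 to 199090 on day 8, against 2571 to 12724 on day 4, from 173177 to 291429 on day 16, against 7194 to 41783 on day 6, and from 52741 to 93136 on day 30. Other lists also moved. The sum of the 4 smooth muscle markers tested, of 5 listed, was 80225 to 124163 on day 8, against 2705 to 20091 on day 4. The 7 cardiac markers had 27889 to 66273 on day 8, against 2868 to 3840 on day 4, and the 6 endoderm markers 92083 to 98788 on day 30, against 2574 to 16493 on day 4. The part of these markers in the courses of Dkk2, Sfrp1 and Sfrp2 was not tested.

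Around these 10 genes, a list of 107 symbols of other Wnt pathway genes was read, 1 probe set a gene. It holds Cyr61, Wisp1 and Wisp2, older names of Ccn1, Ccn4 and Ccn5, beside the newer names, so it covers fewer genes than symbols. Of the symbols 4 (Fgf4, Mixl1, T and Twist1) also stand in the marker lists. Of the 107, 101 were on the chips and 86 passed the filter, and 40 of the 86 passed the F test (28.7% of all 15600 genes did). For day 8 against day 4, 7 rose and 2 fell (7.65% and 4.55% of all genes). For day 16 against day 6, 8 rose and 3 fell (5.59% and 3.47%), and for day 30 against day 4, 10 rose and 17 fell (12.1% and 10.4%). The list's median change for day 30 against day 4 was 0.02, against -0.03 over all genes. Of the 28 calls made for the named genes in these 3 comparisons, 13 held without any 1 array. The count of genes for day 8 against day 4 was 4 without day 8 replicate 1, that for day 30 against day 4 was 17 without day 30 replicate 1, and that for day 16 against day 6 was 7 without any 1 array of day 6 and 5 without day 16 replicate 1.

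The sublist of 28 symbols of other targets had 20 tested genes. For day 30 against day 4, 8 fell, 1 rose and 11 did not pass, where 10.4% of all genes fell and 12.1% rose. The median change of the 20 was -1.72, against -0.03 over all genes. Mixl1, a homeobox gene of the primitive streak, averaged 6.97 ± 1.33 on day 30, against 11.43 ± 1.05 on day 4 (SD, n = 3 each), at least 15.6-fold lower (adjusted p = 0.00154), or at least 23.5-fold without day 4 replicate 3. Cdx2, a posterior homeobox gene, had a change of -2.29 that missed the threshold (0.0507), and passed with the replicate block (0.0469), quantile normalization (0.0454), median centring (0.0466), the stricter filter (0.0437) and scan batch as a random block (0.0383), but not with log2(signal + 64), no filter or eBayes without a trend. It also passed without day 4 replicate 3 (0.00698) or day 30 replicate 3 (0.0224). The one that rose was Ccn1, a matrix-associated signalling gene, with 14.19 ± 0.24 on day 30, against 10.15 ± 0.52 on day 4 (16.4-fold, adjusted p = 2.33e-08). Ccn4, known as a Wnt-induced secreted protein, averaged 11.69 ± 0.39 on day 8, against 6.87 ± 0.69 on day 4, at least 22.8-fold higher (adjusted p = 0.00109). Its mean on day 30 was 6.61 ± 1.39.

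Of 11 other extracellular inhibitors tested, 1 rose and 2 fell for day 30 against day 4 (12.1% and 10.4% of all genes). Dkk3, a Dickkopf relative that does not act on the co-receptors in the same way, was higher in all 3 comparisons without loss in any fit. It averaged 11.38 ± 0.28 on day 16, against 9.56 ± 0.46 on day 6 (3.52-fold, adjusted p = 7.68e-04), and 10.30 ± 0.28 on day 30, against 8.95 ± 0.13 on day 4 (2.55-fold, 0.00319). Cer1, an inhibitor of Nodal and BMP made in the early endoderm, whose Xenopus relative also binds Wnt, averaged 6.26 ± 1.03 on day 30, against 9.45 ± 1.41 on day 4, at least 5.10-fold lower (adjusted p = 0.0232). It failed in 4 of the 6 fits without 1 array, with an adjusted p of 0.0909 without day 4 replicate 1, 0.081 without day 4 replicate 2, 0.0893 without day 30 replicate 2 and 0.0648 without day 30 replicate 3. Without day 4 replicate 3 it was at least 8.93-fold lower. Shisa2, which holds Frizzled receptors back in the cell, averaged 6.42 ± 1.18 on day 30, against 8.52 ± 0.57 on day 4, at least 2.46-fold lower (0.0139). It failed without day 4 replicate 1 (0.0595) or day 30 replicates 1 (0.0576) or 2 (0.0759). Shisa3 passed the F test and had its highest mean, 11.76, on day 8, which passed against day 4 without day 8 replicate 3 (0.0128) and not with it (0.0899).

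Among 14 other ligands tested, 3 rose and 3 fell for day 30 against day 4 (12.1% and 10.4% of all genes). Wnt2 averaged 6.38 ± 1.34 on day 30, against 9.08 ± 0.62 on day 4, at least 3.58-fold lower (adjusted p = 0.00256). Within a single scan batch Wnt4 averaged 11.82 ± 0.49 on day 16, against 9.69 ± 0.47 on day 6 (4.40-fold, 0.0118), a call lost without day 6 replicate 2 (0.0609) or day 16 replicate 1 (0.0743). Wnt10a averaged 10.57 ± 0.51, against 8.42 ± 1.02, on the same days (4.42-fold, 0.0247) and was lost without day 6 replicate 1 (0.133), day 16 replicate 1 (0.116) or 2 (0.0723). Wnt8a, a ligand of the early streak, averaged 7.78 ± 0.48 on day 30, against 9.57 ± 0.33 on day 4 (3.45-fold lower, 0.0312). That call failed in 5 of 6 fits, all but the fit without day 30 replicate 2, with adjusted p values up to 0.101.

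Of 16 receptors tested, 3 rose and 2 fell for day 30 against day 4 (12.1% and 10.4% of all genes). Fzd2 averaged 9.53 ± 0.44 on day 30, against 11.88 ± 0.80 on day 4 (5.09-fold lower, adjusted p = 2.55e-05), and Ror2, a receptor for Wnt5a, averaged 7.76 ± 0.30, against 9.58 ± 0.75 (3.51-fold lower, 5.81e-04). Both falls held without any 1 array. Fzd6 averaged 10.90 ± 0.30 on day 16, against 9.16 ± 0.28 on day 6 (3.34-fold, 0.00825). Fzd1 on 430B averaged 12.80 ± 0.56 on day 30, against 10.96 ± 0.89 on day 4 (3.58-fold, 0.0257). It failed in 4 of 6 fits, without day 4 replicate 2 (0.0794) or 3 (0.136) and without day 30 replicate 1 (0.119) or 3 (0.0556).

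Of 6 genes of ligand secretion and agonists tested, 0 rose and 1 fell for day 30 against day 4 (12.1% and 10.4% of all genes). This was Rspo1, with 6.10 ± 1.38, against 8.53 ± 0.62, at least 2.52-fold lower (adjusted p = 0.0124). Of the 6 fits without 1 array it was tested in 5, and it failed without day 30 replicate 1 (0.059) or 2 (0.0595). In the remaining fit the filter dropped it, so its fall is not independent of the filter. Porcn, which adds the lipid that Wnt proteins need, averaged 9.13 ± 0.33 on day 8, against 10.59 ± 0.49 on day 4 (2.74-fold lower, 0.00331), and 11.30 on day 30. Rspo3 passed the F test and had its lowest mean, 9.90, on day 30. Of 19 intracellular transducers 2 rose and 1 fell for day 30 against day 4 (12.1% and 10.4% of all genes). Tcf7l2, a Tcf factor, averaged 10.54 ± 0.19 on day 30, against 7.67 ± 1.08 on day 4, at least 6.48-fold higher (2.79e-05). Tcf7l1, the Tcf factor best known as a repressor in embryonic stem cells, averaged 12.39 ± 0.14, against 13.25 ± 0.47 (1.81-fold lower, 0.0309), and failed in 5 of 6 fits, with adjusted p values up to 0.11 in all but the fit without day 4 replicate 1. Btrc and Gsk3b, parts of beta-catenin turnover, passed the F test and did not pass in these 3 comparisons.

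**Figure D4:**
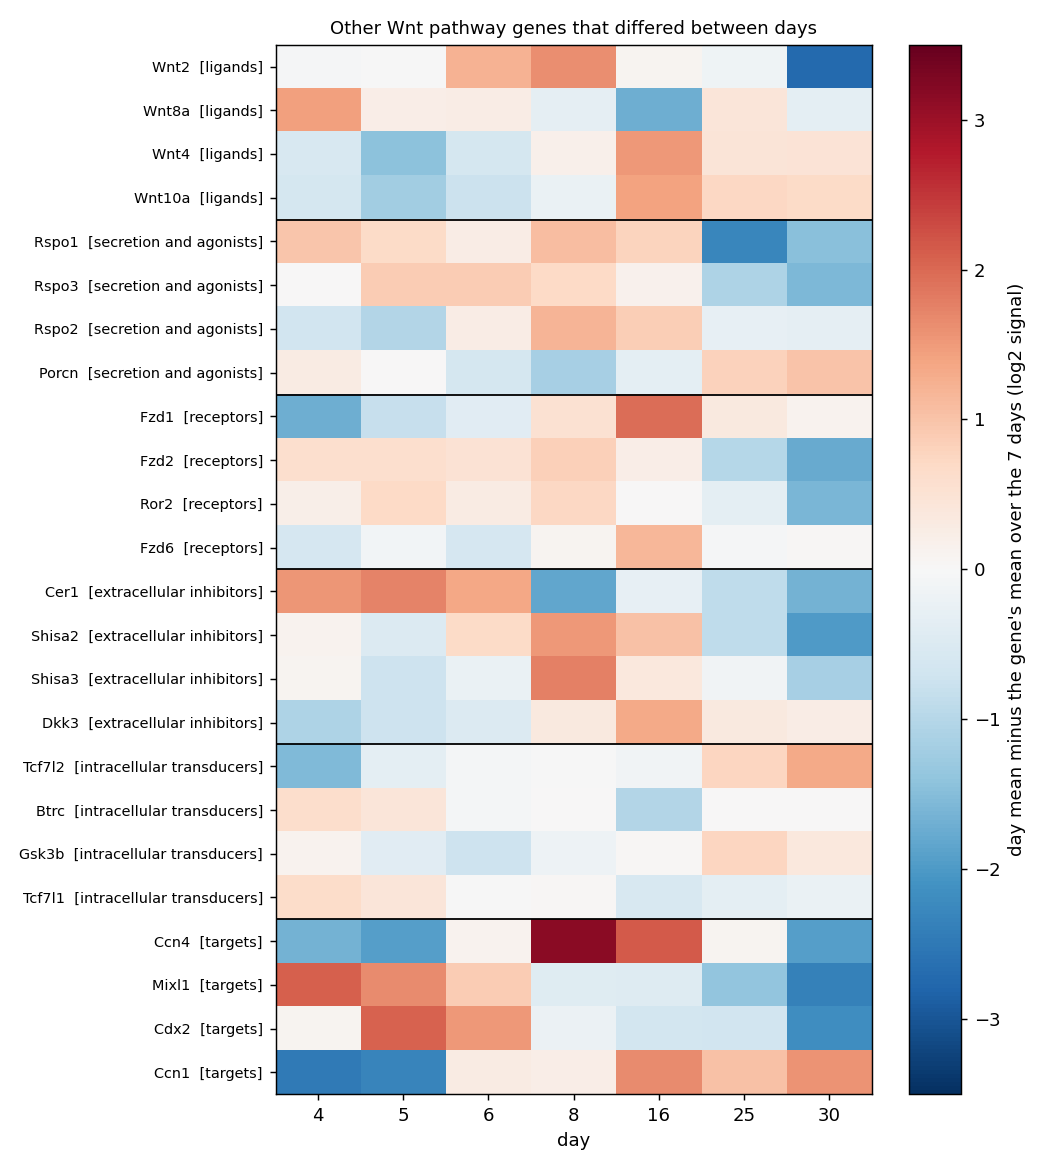
Day means of 24 other Wnt pathway genes that passed the F test, each minus the gene's own mean over the 7 days (colour, log2 signal), with days in columns and genes grouped by role. Ccn4, Shisa3 and Wnt2 are highest on day 8, Dkk3, Wnt4 and Fzd1 on day 16, and Mixl1 on day 4.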

How the data were processed

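The deposited values are MAS5 signal intensity per the submitters' processing notes (no version given there), 1 value per probe set and array, which the authors had scaled to a common trimmed mean without a log. A further normalization between arrays is not given in the sources used here. Control probe sets were left out and gene symbols came from the platform annotation. Log2 of the signal was used as it stood. The filter kept probe sets that exceeded the 40th percentile of an array on 3 or more of the 21 arrays, 16705 on 430A and 18260 on 430B. Each chip was fitted in limma 3.58.1 (R 4.3.3) with day as a factor over its 21 arrays (14 residual degrees of freedom) and eBayes with a trend. P-values come from limma (two-sided contrasts) and were adjusted by Benjamini-Hochberg over the probe sets of a chip, and called means under 0.05. For a fold written "at least", values of the lower day under the chip's 20th percentile were raised to it. The fit was tested on simulated data.

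Each gene of the wider list is represented by 1 tested probe set, the brightest of 430A and otherwise that of 430B. Named genes are all 10 members, up to 4 genes of each sublist past the F test with the largest range of day means, and the 3 genes most correlated with each member whose representative probe set (chosen in the same way) passed the F test, which leaves out Wnt5a and Lef1. The members, lists and comparisons were chosen with earlier results of these data known. Alternatives were other normalizations, filters, an offset, eBayes without a trend, blocks for replicate number and scan batch, and leaving out arrays.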

Additional observations from a re-analysis of the deposited data

How the results depend on the processing

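The counts of member probe sets called in the 10 comparisons, and those of the wider list, stayed within 1.5 times of the values above under quantile normalization, median centring, log2(signal + 64), no filter, a stricter filter (60th percentile), eBayes without a trend and scan batch as a random block. The 1 exception came from an alternative added after seeing the data: with the number in the array headers as a block, 5 member probe sets passed for day 16 against day 6, where 3 did. Scan batch as a random block had a correlation of -0.026 on 430A and 0.034 on 430B. That fit cannot separate batch from day, since most days lie whole in a single batch. With the replicate block, 9, 4, 5 and 4 members passed in the F test and for day 8 against day 4, day 30 against day 4 and day 16 against day 6, where 8, 4, 5 and 3 did. The numbers share no stated source, and not every same-numbered pair deviated together: on 430A 16 of 63 such pairs of different days had a correlation over 0.1 (median 0.033), against 3 of 126 pairs of other numbers (median -0.025), and 16 of 21 samples correlated best with their own number (13 of 21 on 430B). This is a hint from the data, not the design, and the samples were treated as unpaired. The block changed the call for Sfrp1 1448395_at for day 16 against day 6, the F test of Lef1 on 430A and Cdx2 for day 30 against day 4, as given above, and for no other named gene. Without 1 array each, these counts ranged from 6 to 9, 2 to 4, 4 to 6 and 0 to 4, and the neighbouring steps from 0 to 0, except day 25 against day 16 with 0 to 1. For the wider list, 40, 9, 27 and 11 genes ranged from 30 to 41, 4 to 12, 17 to 29 and 5 to 9. For day 16 against day 6 the count of members was 0 without day 6 replicate 3 and 1 without day 16 replicate 1. Single values of members were followed where the main fit was past or near the threshold. Of these 311 values under the other settings, 285 counted as unchanged, 11 lost the call, 15 gained it and 0 turned their sign. They include F tests, which have no sign, and changes within a single scan batch, which have no p-value. For day 16 against day 6 those within a batch equal the main changes by design. Gains included Dkk1 on 430A for day 16 against day 6 under quantile normalization (adjusted p = 0.0486) and median centring (0.0474). Among the other pathway genes, eBayes without a trend ended the calls for day 30 against day 4 of Fzd1 (0.0832) and Tcf7l1 (0.0502), and the header number as a block that of Wnt10a for day 16 against day 6 (0.0542). The median of all probe sets on 430A in that comparison was -0.10 and -0.12 under these 2 scalings, and -0.08 as deposited. Values near the 20th percentile have no reliable order, which limits Wnt3, Dkk2 on day 4 and Lef1 on 430A on day 30.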
